A study of Mus musculus with 6 samples.

Results

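The constitutive proteasome subunits were followed in the RNA of mouse lung fibroblasts (LFs) under TGFβ. They were taken as the protein-coding genes whose symbol is Psma, Psmb, Psmc, Psmd or Psme and a number, without the immunoproteasome genes Psmb8, Psmb9 and Psmb10, and with a mean of at least 10 raw counts over the 6 libraries. The rule found 38 of the 55364 genes listed: 14 genes of the 20S core and 24 genes of its regulatory particles. A further 2 of the 40 subunit genes, Psma8 (3 counts in all) and Psmb11 (2 counts in all), fell below the minimum, and all 38 members were kept for the test. The series holds 3 libraries of wt LFs and 3 libraries whose labels give the genotype as TKS5 knockout, while the paper's text on this experiment writes Tks5+/-. They are called KO-labelled here. All 6 came from primary LF cultures that had received 10 ng/ml TGF-β1 in serum-free medium for 24 h, so no library shows the LFs without TGFβ. The paper takes its mice as C57Bl6/J littermates, and the labels give no strain, sex or age. The targeting makes an exon of Sh3pxd2a, the gene of Tks5, removable by a Cre driven by the CMV promoter in all tissues, and the text does not say which of its alleles these LFs carried. The paper calls its samples biologically independent, while the labels tie no library to an animal or a culture. The p-values measure the spread between these libraries.

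The proteasome is the cell's main protease for proteins tagged with ubiquitin. Its 20S core is a barrel of alpha rings, which gate the entry, and beta rings, which hold the catalytic subunits. The 19S particle caps the barrel: its lid removes ubiquitin chains, and its base of ATPases unfolds the substrate and threads it in, while the activators PA28 and PA200 can take its place. In fibroblasts the proteasome turns over short-lived regulators, among them components of TGFβ signalling, and cells short of proteasome activity are known to raise its genes through the transcription factor Nrf1, encoded by Nfe2l1.

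Quant-Seq reads start from the poly(A) tail, so that each read stands for the end of a transcript. The raw counts added up to 1344507, 1647200 and 2369882 in wt replicates 1 to 3. In the KO-labelled replicates they added up to 1979084, 2110954 and 2329155. A single member had between 25 and 2888 counts in a library. Levels are given as CPM, the counts divided by the library's total over the 10346 genes tested, as scaled by edgeR's TMM. Sh3pxd2a counts were 205, 190 and 284 for wt replicates 1 to 3 against 238, 258 and 260 for the KO-labelled replicates. Sh3pxd2a did not pass the test described below (log2 0.29; edgeR adjusted p = 0.249). With transcript length corrected it was called higher (1.0; edgeR adjusted p = 5.23e-04). So these counts did not show the lower Tks5 RNA that the paper reports for Tks5+/- LFs by Q-RT-PCR. Reads from the end of the gene need not cover the removable exon, and whether they would drop depends on the allele, which is not given. The cause was not tested, the counts do not bear out the labels, and each direction below rests on the labels. Markers of LFs (Col1a1, Pdgfra, Thy1 and others) were present in every library, with 9 of 9 listed genes tested, of which 4 were higher and 1 lower in KO-labelled LFs. Their sums were 4825, 5254 and 3876 CPM in the wt libraries and 8715, 6290 and 5598 CPM in the KO-labelled ones, without overlap. Listed macrophage markers added up to 379, 322 and 2011 CPM in the wt libraries and to 140.5 to 151.5 CPM in the KO-labelled ones, so that wt replicate 3 stood apart. Of 10 tested, 4 macrophage markers were lower and 0 higher. Each marker count here is to be set beside the shares of all genes tested, 22.8% called higher and 22.1% lower. Of the endothelial markers 3 of 4 tested were lower (109 to 135 CPM in sum in the wt libraries, 45.6 to 60.4 CPM in the KO-labelled ones), as was the 1 mesothelial marker tested. Without wt replicate 3 the median log2 fold change of the core genes described below was 1.08, as with it. This leaves the difference in markers in place, since the other wt libraries also held more macrophage and endothelial marker CPM than the KO-labelled ones. The part of these cells and of the LF markers in the results was not tested. Of 8 epithelial genes listed, the alveolar and airway genes Sftpc, Sftpb and Scgb1a1 had 0 counts in every library. The list still added up to 22.5 to 54.9 CPM in the wt libraries and 29.2 to 62.0 CPM in the KO-labelled ones. Of its 2 genes tested, 1 was higher and 1 lower. In bulk RNA, fewer cells of a type and less RNA per cell cannot be told apart.

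For the members in which the letters are found, the promoters were searched for TGACNNNGC, the core of the antioxidant response element that Nrf1 and its relative Nrf2 bind, on both strands of a window from 250 bases before to 50 bases after the RefSeq start of each gene. Of the 38 members, 32 had a window in the table. The 6 others were Psmb1, Psmb2, Psmb7, Psmc3, Psmd3 and Psmd7. The letters were found in 6 of the 32 windows (18.8%), against 14% of the windows of all 27025 genes. The windows of 2 core genes held them, those of the catalytic subunits Psmb5 and Psmb6, and so did those of 4 regulatory genes, Psmc6, Psmd9, Psmd12 and Psme4. The 2 core genes are shown because they code for catalytic subunits, and Psmc6 and Psme4 because their RNA moved the other way (below). Coordinates are those of GRCm38.p6, the sequences are RefSeq's, and capitals mark the searched letters with up to 10 bases on each side.
Psmb5, chr14:54618024-54618052, minus strand: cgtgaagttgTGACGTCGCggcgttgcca
Psmb6, chr11:70525338-70525366, plus strand: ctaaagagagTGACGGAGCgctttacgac
Psmc6, chr14:45329587-45329615, minus strand: gagcaatgccTGACTTAGCtactggctgg
Psme4, chr11:30771758-30771786, minus strand: gctcttctggTGACGCTGCagccgcagcg
In Psmb5 and Psmb6 the match reads along the gene's own strand, 47 and 9 bases before the start, and in Psmc6 and Psme4 on the opposite strand, 227 and 7 bases before it. The box CCAAT, searched in the same way, was in 6 of 11 core windows and 6 of 21 regulatory windows, against 41.1% of all windows. A match is a string of letters and does not show that a factor binds there.

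The RNA of the 20S core was higher in the KO-labelled LFs almost throughout. Of its 14 genes, 13 rose, 0 fell and 1, Psmb6, did not pass the test. A gene was called where edgeR's quasi-likelihood F test gave an adjusted p under 0.05 (Benjamini-Hochberg over all 10346 genes tested) and the fold change was at least 1.2. Over all genes tested, 22.8% were called higher and 22.1% lower. The median log2 fold change of the core genes was 1.08, between 0.43 and 2.32, while that of all genes tested was -0.05. In 13 core genes every KO-labelled library lay above every wt library, which 26.1% of all genes also did. For any such gene a two-sided exact permutation test of the CPM values gives p = 0.1, the smallest that 3 libraries against 3 allow.

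**Figure D1:**
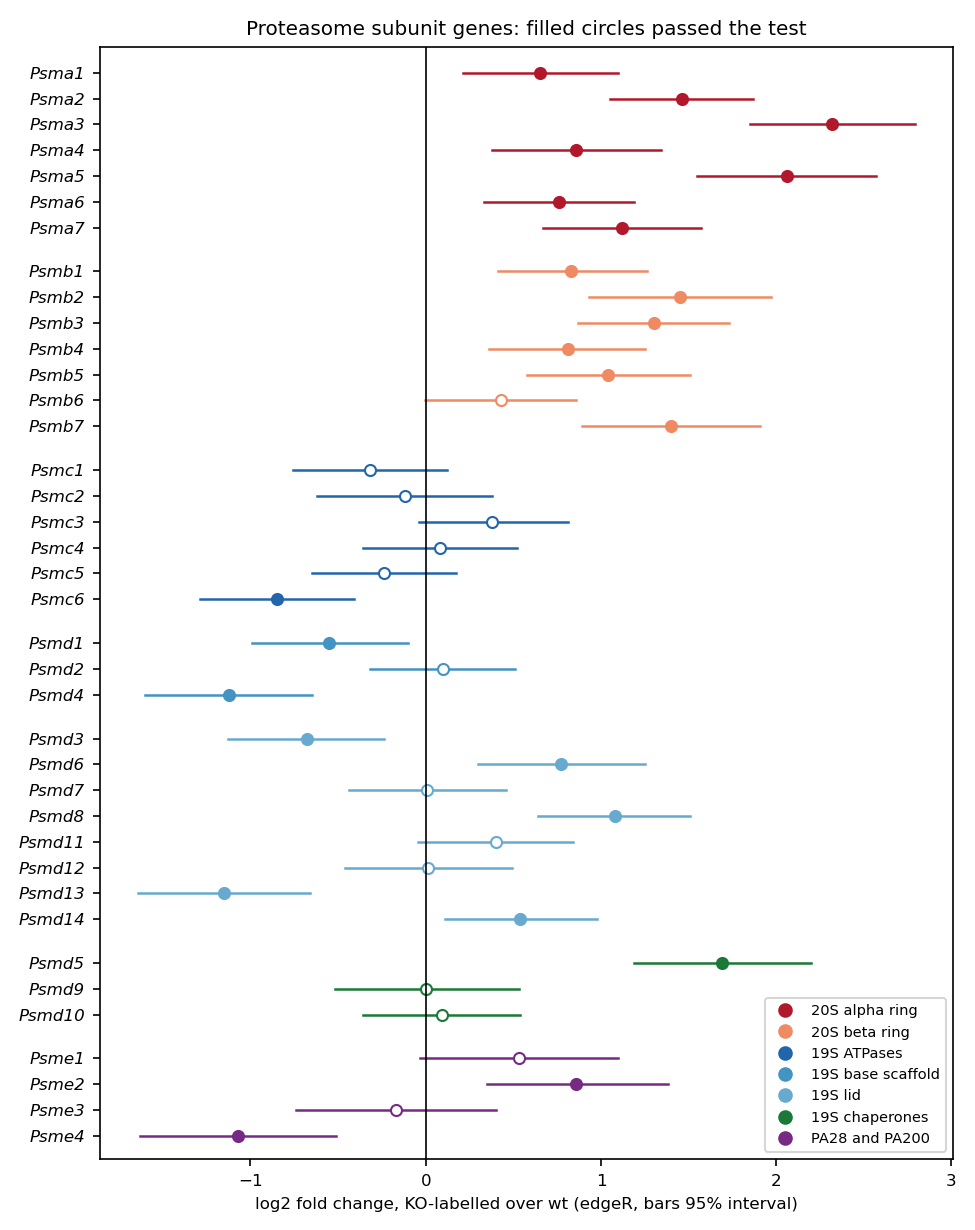
Log2 fold change of each of the 38 members, KO-labelled over wt, on the horizontal axis, with 95% intervals from edgeR as bars. Genes are grouped and coloured by subcomplex, and filled circles passed the test. The 20S core genes lie between 0.43 and 2.32, and the regulatory genes lie on both sides of 0, between -1.15 and 1.69.

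The regulatory particles did not move as one. Of 24 genes, 5 rose, 6 fell and 13 did not pass the test, close to the shares of 22.8% and 22.1% among all genes tested, and their median log2 fold change was 0.01. In 6 regulatory genes every KO-labelled library lay above every wt library and in 7 below, against 26.1% and 27.6% of all genes tested. The median of the core lay 1.07 above that of the regulatory genes on the log2 scale. Over the 21 alternative ways of processing the counts this gap was 0.85 to 1.29.

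Summed over its 14 genes, the 20S core stood at 2191, 2369 and 2370 CPM in wt replicates 1, 2 and 3 and at 4246, 5971 and 4909 CPM in the KO-labelled replicates. The 17 Psmc and Psmd genes of the 19S particle, chaperones left out, added up to 3400, 3667 and 4126 CPM in the wt libraries. In the KO-labelled libraries they added up to 3437, 3662 and 4138 CPM. Sem1 and Adrm1, which carry no Psmd symbol and are described below, were not among them. On this scaling the core sums did not overlap between the genotypes, whereas the 19S sums covered nearly the same range. The TMM factors were 1.17, 1.148 and 1.155 in wt replicates 1 to 3 and 0.9324, 0.8166 and 0.8462 in the KO-labelled ones. With library totals as the scaling, 1 of these 17 genes was called higher and 7 lower, with a median log2 fold change of -0.42. All genes tested were then called higher in 13.2% and lower in 38.1%, with a median of -0.465. Within a library, where scaling has no part, the ratio of core to 19S counts was 0.644, 0.646 and 0.574 in wt LFs and 1.24, 1.63 and 1.19 in KO-labelled LFs. Its mean was 0.622 ± 0.0409 (SD, n = 3) and 1.35 ± 0.244 (SD, n = 3). Without Psma3 and Psma5, the 2 core genes with the largest change, the core sums were 1933 to 2158 CPM in the wt libraries and 3320 to 4497 CPM in the KO-labelled ones, still without overlap. KO-labelled replicate 2 held the highest level of 10 of the 14 core genes among the KO-labelled libraries, and KO-labelled replicate 1 the lowest level of 11. The spread within a genotype was of like size in both sets: the coefficient of variation had a median of 12.8% over the core genes and 15.7% over the regulatory genes in wt LFs, and of 19.9% and 19% in KO-labelled LFs.

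**Figure D2:**
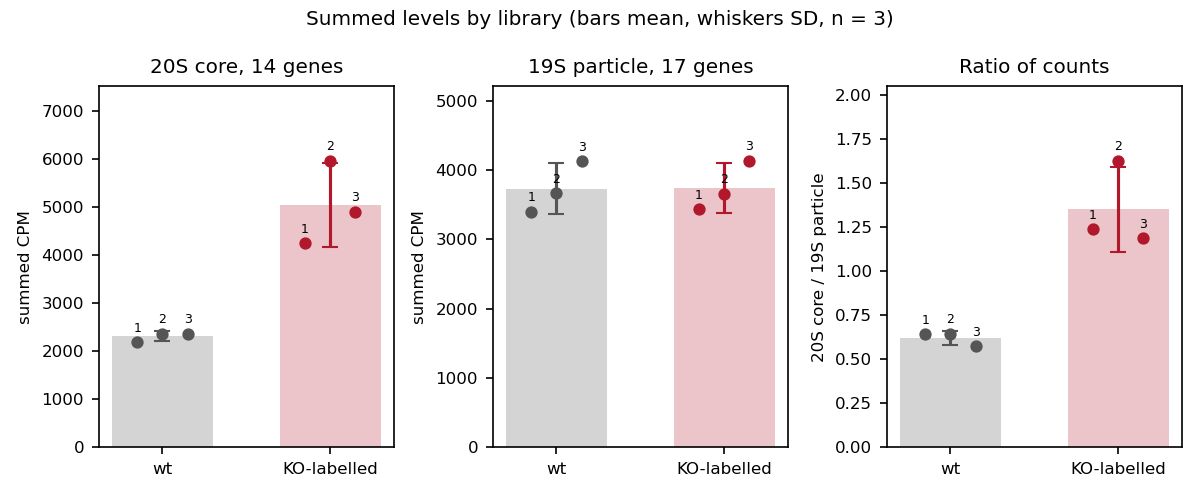
Summed CPM of the 14 core genes and of the 17 Psmc and Psmd genes of the 19S particle, chaperones left out. The right panel gives the ratio of their counts, and all axes start at 0. Points are libraries with their replicate number, bars the mean and whiskers the SD (n = 3). The wt ratios lie between 0.574 and 0.646 and the KO-labelled ratios between 1.19 and 1.63.

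Core genes have short transcripts, and the correction for transcript length moved their values. Genes with long transcripts tended to lower log2 fold changes over the 10339 genes that had both values (Spearman's rho = -0.397; genes are not independent replicates, and no p is given). The median length was 1220 bases in the core, 1988 in the regulatory genes and 3204 over all genes tested. After each library was corrected for its trend with length, rho was -0.0371, 8 of the 14 core genes were called higher and 0 lower, and their median was 0.73. All genes were then called higher in 21% and lower in 17.9%. Of the regulatory genes 2 were higher and 6 lower, with a median of -0.13. The part of transcript length in the differences as fitted was not tested beyond this correction. The core count was 8 as well with library totals as the scaling, where 13.2% of all genes were higher, and on the authors' normalized counts, where 19.5% were. Library totals lost Psma1, Psma4, Psma6, Psmb1 and Psmb4, and the authors' normalized counts lost Psma1, Psma6, Psma7, Psmb1 and Psmb4.

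**Figure D3:**
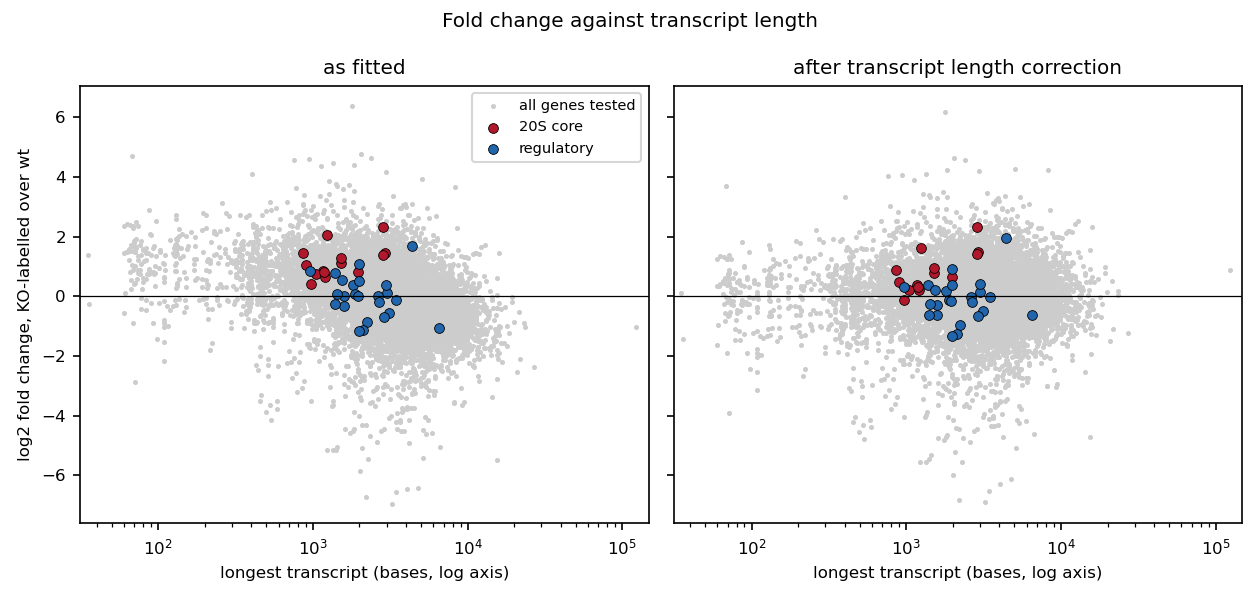
Log2 fold change, KO-labelled over wt, against the length of the longest transcript in bases on a log axis, as fitted (left) and after correction for length (right). Grey points are all tested genes with a length, red points the 14 core genes and blue points the 24 regulatory genes. The core median goes from 1.08 to 0.73 and the regulatory median from 0.01 to -0.13.

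In the alpha ring 7 of 7 genes were called higher, against 22.8% of all genes tested. Their median log2 fold change was 1.12. With length corrected 4 of the 7 were called higher, against 21% of all genes. The number was 4 as well with library totals, against 13.2% of all genes, and on the authors' normalized counts, against 19.5%. Psma3 (ENSMUSG00000060073; GRCm38 chromosome 12, 70974621 to 70996347), whose subunit helps to close the gate of the barrel, was at 199, 166 and 186 CPM in the wt libraries and at 729, 1198 and 821 CPM in the KO-labelled ones. It rose 4.99-fold (log2 2.32, SE 0.23; edgeR adjusted p = 8.27e-08), and the lowest KO-labelled library was above the highest wt library. Its processed pseudogene Gm13835, which matches it without a mismatch over 665 bases, had 1373 counts against 6101 of Psma3. With the reads of its near copies added, the log2 fold change of Psma3 was 2.26. Psma5 (chromosome 3, 108256926 to 108279974), another wall subunit of the ring, was at 58.6, 45.5 and 43.8 CPM in the wt libraries. In the KO-labelled replicates it was at 197.5, 275.6 and 141.8 CPM, a 4.18-fold rise (log2 2.06, SE 0.25; edgeR adjusted p = 8.29e-07) with no overlap. Psma1 (chromosome 7, 114264606 to 114276118) had the largest adjusted p of the ring, with 75.3, 69.0 and 71.6 CPM in wt LFs and 141.6, 105.3 and 92.1 CPM in KO-labelled LFs. Here too every KO-labelled library lay above the wt libraries, and the log2 fold change was 0.65 (SE 0.21; edgeR adjusted p = 0.0167). Psma1 lost its call when wt replicate 2 (0.62, adjusted p = 0.0736) or KO-labelled replicate 1 (0.51, adjusted p = 0.0598) was left out. With length corrected it was at 0.20 and not called (edgeR adjusted p = 0.486), and at -0.0094 once length and GC content were corrected together.

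The other alpha genes lay between these. Psma2 rose by 1.46 on the log2 scale, from 168 ± 2.83 CPM (SD, n = 3) to 463 ± 26.2 (SD, n = 3), with the smallest spread between wt libraries of any core gene (coefficient of variation 1.69%). Psma7 rose by 1.12, Psma4 by 0.86 and Psma6 by 0.76 (edgeR adjusted p = 2.60e-04, 0.00442 and 0.00505). Psma4 has the pseudogene Gm6542, with 353 counts against its own 487, and with these added its log2 fold change was 0.74 (adjusted p = 0.00793). Length correction brought Psma4 to 0.39 and Psma6 to 0.23, neither of them then called, but left Psma2 at 1.49, Psma3 at 2.34 and Psma5 at 1.61.

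In the beta ring 6 of 7 genes rose, against 22.8% of all genes tested, with a median log2 fold change of 1.04. With length corrected 4 were called higher, against 21% of all genes, and the median was 0.66. Library totals also gave 4, against 13.2% of all genes, as did the authors' normalized counts, against 19.5%. The 3 catalytic subunits did not all pass the test. Psmb5, the chymotrypsin-like subunit (chromosome 14, 54614119 to 54618022), was at 61.8, 44.4 and 47.5 CPM in the wt libraries and at 84.0, 123.5 and 108.5 CPM in the KO-labelled ones. The groups did not overlap, and the rise was 2.06-fold (log2 1.04, SE 0.22; edgeR adjusted p = 6.52e-04). Its pseudogene Gm3375 is 98.9% identical over 796 bases and was counted more often than Psmb5 itself, with 2330 counts against 883, so the split of reads between them is uncertain. Both added together were higher by 0.91 (adjusted p = 0.00187), and Gm3375 alone by 0.86. With length corrected, Psmb5 was at 0.47 and not called (adjusted p = 0.0902).

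Psmb7, the trypsin-like subunit (chromosome 2, 38588036 to 38644087), was at 46.3, 57.3 and 62.3 CPM in wt LFs and at 98.2, 136.9 and 204.7 CPM in KO-labelled LFs. KO-labelled replicate 3 was the highest, none of the values overlapped, and the rise was 2.64-fold (log2 1.40, SE 0.25; edgeR adjusted p = 9.24e-05). The 3′ end of Psmb7 faces that of Nek6 on the opposite strand, and since the sources do not say whether counting kept to 1 strand, some of its reads may belong to Nek6. Psmb6, the caspase-like subunit (chromosome 11, 70525367 to 70527858), was at 339, 380 and 367 CPM in the wt libraries and at 373, 569 and 518 CPM in the KO-labelled ones. KO-labelled replicate 1 lay inside the wt range. The log2 fold change of Psmb6 was 0.43 (95% interval -0.0034 to 0.86; edgeR adjusted p = 0.0992; exact two-sided permutation test, p = 0.2). Without KO-labelled replicate 1 it was 0.64 and called (adjusted p = 0.0142), and it was under 0 in 5 alternatives, among them length correction (-0.13).

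Among the structural beta subunits, Psmb3 (chromosome 11, 97703399 to 97713500) had the smallest adjusted p of the ring. It was at 65.7, 63.7 and 68.6 CPM in the wt libraries and at 137.7, 184.3 and 165.3 CPM in the KO-labelled ones, 2.46-fold higher without overlap (log2 1.30, SE 0.21; edgeR adjusted p = 2.84e-05). Psmb2 (chromosome 4, 126677630 to 126709714) was at 37.3, 23.5 and 20.4 CPM and at 64.2, 87.8 and 66.5 CPM, 2.73-fold higher (log2 1.45, SE 0.25; edgeR adjusted p = 7.63e-05). The wt libraries of Psmb2 varied most of all core genes (coefficient of variation 33.3%), yet remained below the KO-labelled ones. Psmb1 rose by 0.83 and Psmb4 by 0.81 on the log2 scale (edgeR adjusted p = 0.00214 and 0.00416), Psmb4 from 473 ± 15.1 to 827 ± 226 CPM (SD, n = 3). On the authors' normalized counts they were at 0.24 and 0.28 (limma adjusted p = 0.439 and 0.372), and with length corrected Psmb4 was at 0.33 and not called (adjusted p = 0.208). Across both rings, Psma2, Psma3, Psma5, Psmb2, Psmb3 and Psmb7 were called higher in each of the 21 alternatives.

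**Figure D4:**
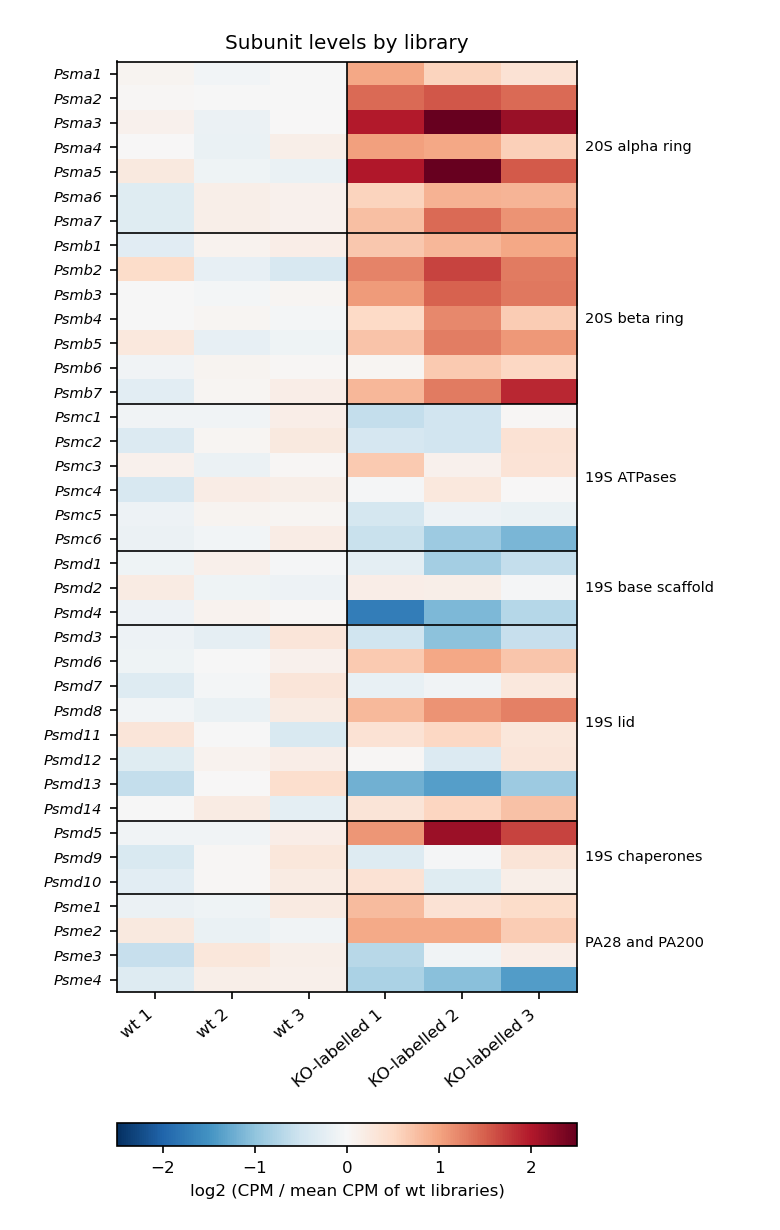
Level of each member in each library, as the log2 of its CPM over the mean CPM of the 3 wt libraries (colour scale), with genes in rows by subcomplex and libraries in columns. The core rows are red in the KO-labelled columns, with Psmb6 in KO-labelled replicate 1 close to white, while the regulatory rows hold both colours.

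The 6 ATPases of the 19S base, the motor that unfolds substrates, held 0 genes that rose and 1 that fell, with a median log2 fold change of -0.18. Over all genes tested 22.8% were called higher and 22.1% lower. Psmc6 (chromosome 14, 45329788 to 45349705) was at 133.9, 141.8 and 169.8 CPM in wt LFs and at 101.0, 79.0 and 67.6 CPM in KO-labelled LFs. All KO-labelled libraries were below the wt libraries, and Psmc6 was 1.80-fold lower (log2 -0.85, SE 0.21; edgeR adjusted p = 0.00257). It kept its call in each of the 21 alternatives. Psmc3 was at 301, 251 and 284 CPM and at 438, 300.2 and 353 CPM, with overlap between the groups and a log2 fold change of 0.38 (adjusted p = 0.132). The 3′ end of Psmc3 meets that of Slc39a13 on the opposite strand. For Psmc4, with the largest adjusted p of the ATPases, the CPM were 99.1, 148 and 145 in wt LFs and 127.9, 157 and 132 in KO-labelled LFs. Its log2 fold change was 0.083 (95% interval -0.36 to 0.52), a range that leaves out a change of the size of the core median. Psmc1 at -0.32, Psmc2 at -0.12 and Psmc5 at -0.24 did not pass the test either (edgeR adjusted p = 0.232, 0.704 and 0.337). With length corrected, Psmc1 (-0.62) and Psmc5 (-0.62) were called lower.

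Of the 3 scaffold genes of the base, 2 fell and 0 rose, with a median of -0.55, where 22.1% of all genes tested were called lower. Psmd4, the ubiquitin receptor Rpn10 (chromosome 3, 95032694 to 95042614), was at 546, 631 and 613 CPM in the wt libraries and at 180.5, 275 and 366 CPM in the KO-labelled ones. KO-labelled replicate 1 was the lowest, the groups did not overlap, and Psmd4 was 2.18-fold lower (log2 -1.12, SE 0.23; edgeR adjusted p = 4.42e-04), called in each of the 21 alternatives. Psmd1 (Rpn2), at 99.1, 117 and 105 CPM and at 90.5, 59.1 and 70.6 CPM, was also lower in every KO-labelled library, with a log2 fold change of -0.55 (SE 0.21; edgeR adjusted p = 0.0422). This call held without KO-labelled replicate 1 but was lost without wt replicate 1 (adjusted p = 0.052), wt replicate 2 (0.155), wt replicate 3 (0.0646), KO-labelled replicate 2 (0.199) or KO-labelled replicate 3 (0.123). Psmd2 (Rpn1) was at 168.0, 135.4 and 133.5 CPM and at 162.4, 160.9 and 143.3 CPM, and its groups overlapped (log2 0.10, 95% interval -0.32 to 0.51; adjusted p = 0.718).

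The lid held genes of both directions, with 3 of 8 genes higher, 2 lower and a median log2 fold change of 0.21. These counts stand beside shares of 22.8% called higher and 22.1% lower among all genes tested. With length corrected, with library totals and on the authors' normalized counts, 1 lid gene was higher and 2 were lower each time. Psmd8 (Rpn12; chromosome 7, 29174188 to 29180701) was at 590, 551 and 706 CPM in the wt libraries and at 1073, 1345 and 1478 CPM in the KO-labelled ones. It rose 2.11-fold without overlap (log2 1.08, SE 0.21; edgeR adjusted p = 2.45e-04). Psmd8 was at 0.62 and not called on the authors' normalized counts (limma adjusted p = 0.0572). Psmd13 (Rpn9; chromosome 7, 140881968 to 140898643) went the opposite way, from 320.5, 485.9 and 647.4 CPM in wt LFs to 211, 187 and 259 CPM in KO-labelled LFs. The wt libraries of Psmd13 differed widely but all lay above the KO-labelled ones, and it was 2.22-fold lower (log2 -1.15, SE 0.24; edgeR adjusted p = 4.78e-04). It was called in each of the 21 alternatives. Psmd7 (Rpn8), with the largest adjusted p of the lid, was at 83, 100.6 and 127.9 CPM and at 91.6, 97.7 and 124.9 CPM, values that overlapped nearly in full (log2 0.0068, 95% interval -0.44 to 0.46; adjusted p = 0.982).

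Psmd6 (Rpn7) rose by 0.77 on the log2 scale (SE 0.23; edgeR adjusted p = 0.00866) and Psmd14 (Rpn11), the deubiquitinase of the lid, by 0.54 (SE 0.21; adjusted p = 0.0389). The call of Psmd14 held without KO-labelled replicate 1 but was lost without any 1 of the other libraries, with adjusted p = 0.0837, 0.05 and 0.156 without wt replicates 1, 2 and 3 and 0.0606 and 0.115 without KO-labelled replicates 2 and 3. Psmd3 (Rpn3) was lower, at -0.68 (SE 0.22; edgeR adjusted p = 0.0129), a call that was lost by leaving out wt replicate 3 (-0.50, adjusted p = 0.0834) or KO-labelled replicate 2 (-0.51, adjusted p = 0.0881). Psmd11 (Rpn6) at 0.40 and Psmd12 (Rpn5) at 0.015 did not pass the test (adjusted p = 0.135 and 0.963). With length corrected, Psmd8 (0.91), Psmd3 (-0.66) and Psmd13 (-1.31) were called, and Psmd6 (0.40) and Psmd14 (0.22) were not.

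Of the 3 chaperones of the 19S base that carry a subunit symbol, 1 rose, where 22.8% of all genes tested did. Psmd5 (S5b; chromosome 2, 34849734 to 34874968) was at 45.7, 46.0 and 54.9 CPM in the wt libraries and at 104.8, 214.2 and 157.1 CPM in the KO-labelled ones. KO-labelled replicate 2 was the highest, no values overlapped, and Psmd5 rose 3.23-fold (log2 1.69, SE 0.24; edgeR adjusted p = 8.54e-06). Its longest transcript has 4397 bases, and with length corrected it was at 1.97. Psmd10 (gankyrin) was at 90.1, 110 and 125 CPM and at 139, 88.4 and 121 CPM, and Psmd9 (p27) at 29.0, 38.5 and 46.0 CPM and at 30.2, 36.9 and 47.6 CPM. Both overlapped between the genotypes, with log2 fold changes of 0.094 (95% interval -0.36 to 0.54; adjusted p = 0.751) and 0.0031 (95% interval -0.52 to 0.53; adjusted p = 0.993).

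The activators that can replace the 19S particle also split. Psme2, a subunit of the interferon-inducible ring PA28 alpha-beta (chromosome 14, 55587441 to 55591113), was at 27.0, 20.3 and 21.5 CPM in wt LFs and at 44.5, 44.5 and 35.8 CPM in KO-labelled LFs. It rose 1.82-fold without overlap (log2 0.86, SE 0.25; edgeR adjusted p = 0.00690). Its near copy Psme2b had more counts than Psme2, 576 against 365, and rose by 0.77 (edgeR adjusted p = 0.00972; not called without KO-labelled replicate 2, 0.0525). Added together they were higher by 0.81 (adjusted p = 0.00345), while Psme2 was not called with length corrected (0.32) or with library totals (0.44). Psme1, the partner of Psme2 in the ring, was at 16.1, 16.6 and 20.8 CPM and at 30.7, 22.8 and 24.6 CPM. The groups of Psme1 did not overlap, but it did not pass the test (log2 0.53, 95% interval -0.034 to 1.10; adjusted p = 0.118), and its 3′ end meets that of Emc9 on the opposite strand. It was called higher on the authors' normalized counts (0.74, limma adjusted p = 0.0327) and with GC content corrected (0.74, adjusted p = 0.029).

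Psme4, the gene of PA200 (chromosome 11, 30771726 to 30880361), went down, from 28.3, 39.1 and 38.2 CPM in the wt libraries to 20.3, 17 and 13.3 CPM in the KO-labelled ones. Every KO-labelled value was below every wt value, and Psme4 was 2.10-fold lower (log2 -1.07, SE 0.27; edgeR adjusted p = 0.00280). Its longest transcript, of 6491 bases, is the longest among the members, and with length corrected it was at -0.61 and not called (adjusted p = 0.0762). Psme3, which forms the nuclear ring PA28 gamma, was at 23.8, 43.3 and 39.3 CPM and at 22, 33.4 and 39.9 CPM, with overlap (log2 -0.17, 95% interval -0.74 to 0.40; adjusted p = 0.638).

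The chaperones that build the 20S core were mostly higher too. Of 6 genes listed 5 were tested, of which 4 rose and 0 fell (median log2 fold change 1.11), where 22.8% of all genes tested were called higher. With length corrected 3 were called higher, against 21% of all genes, and Psmg4 was at 0.41 (edgeR adjusted p = 0.352). The number was 2 with library totals, against 13.2% of all genes, and 3 on the authors' normalized counts, against 19.5%. Psmg2, which pairs with Psmg1 to assemble the alpha ring, was at 32.8, 32.1 and 24.1 CPM in wt LFs and at 51.6, 97.1 and 96.2 CPM in KO-labelled LFs, a rise of 2.77-fold (log2 1.47, SE 0.26; edgeR adjusted p = 7.55e-05). Psmg1 was at 10.9, 4.28 and 4.45 CPM and at 14.3, 32.2 and 19.96 CPM, 3.50-fold higher (log2 1.81, SE 0.40; edgeR adjusted p = 9.21e-04). In both, every KO-labelled library was above the wt libraries. Pomp, the maturation factor on which the beta ring is completed, was at 1284, 1406 and 1593 CPM and at 1958, 2755 and 3179 CPM, also without overlap (log2 0.88, SE 0.22; edgeR adjusted p = 0.00233). On the authors' normalized counts Pomp was at 0.026 (limma adjusted p = 0.937). Psmg4 rose by 1.11 (adjusted p = 0.0128; lost when wt replicate 3, 0.0560, or KO-labelled replicate 2, 0.0818, was left out), and Psmg3 at 0.43 did not pass the test (adjusted p = 0.183; called without KO-labelled replicate 1, 0.72, adjusted p = 0.0264).

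The inducible catalytic subunits, which take the place of the constitutive ones in the immunoproteasome, did not rise with the core. Psmb8, the counterpart of Psmb5, gave 8, 18 and 49 counts for the wt replicates and 11, 11 and 6 for the KO-labelled ones. The groups overlapped in CPM (exact two-sided permutation test, p = 0.3), and the log2 fold change was -1.15 (SE 0.46; edgeR adjusted p = 0.0471). Most of its wt reads were in wt replicate 3, the library with the most macrophage marker reads, without which it was at -0.54 (adjusted p = 0.445). The call was also lost without wt replicate 2 (adjusted p = 0.0595) or KO-labelled replicates 1, 2 or 3 (0.0855, 0.0664 and 0.193), and with DESeq2 and limma-voom. Psmb10, the counterpart of Psmb7, was at 23.8, 46.0 and 47.1 CPM and at 23.1, 35.1 and 33.8 CPM, with overlap (log2 -0.36, adjusted p = 0.290), and was called lower with length corrected (-0.77) or with library totals as the scaling (-0.79). Psmb9, the counterpart of Psmb6, gave 4, 3 and 2 counts for the wt replicates and 1 count for each KO-labelled one. It was too low for the test, and no fold is given since a count of 0 already allows 3 counts.

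Set against its constitutive counterpart within each library, Psmb10 made up 40.5% ± 5.74 (SD, n = 3) of the counts of Psmb7 and Psmb10 in wt LFs and 17.9% ± 3.28 (SD, n = 3) in KO-labelled LFs. For Psmb8 the share of the pair with Psmb5 was 17.7% ± 10.0 (SD, n = 3) and 4.80% ± 1.98 (SD, n = 3). Both shares were lower in every KO-labelled library than in any wt library (exact two-sided permutation test over 3 pairs, p = 0.1 and adjusted p = 0.1 each, the smallest possible). Of the 2 genes in the pair, Psmb7 rose and Psmb10 did not pass the test, so the lower share of Psmb10 is no measure apart from the rise of Psmb7 already given. The reads that Psmb7 may take from Nek6 and that Psmb5 shares with Gm3375 enter these shares too. The shares are read only between libraries, since the counts of different genes are not compared here as amounts. The part of the macrophage reads in them was not tested.

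**Figure D5:**
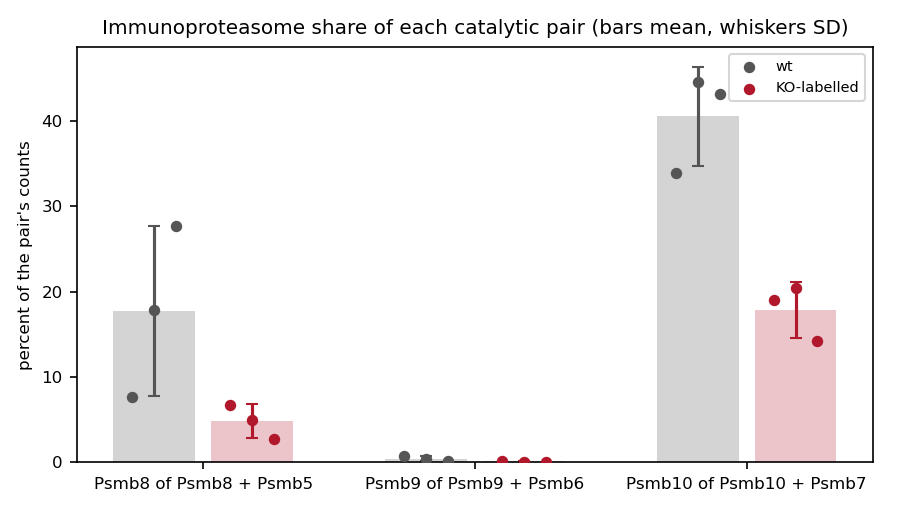
Counts of each inducible catalytic gene as a percent of the counts of the pair it forms with its constitutive counterpart. Points are libraries, bars the mean and whiskers the SD (n = 3). Psmb10 goes from 40.5% in wt LFs to 17.9% in KO-labelled LFs and Psmb8 from 17.7% to 4.80%, while Psmb9 had at most 4 counts in any library.

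Proteins that bind or regulate the particle moved both ways, with 3 of 9 listed genes higher and 4 lower. Over all genes tested 22.8% were called higher and 22.1% lower. With length corrected 2 of the 9 were higher and 2 lower, with library totals 1 and 4, and on the authors' normalized counts 1 and 3. Sem1, the small lid subunit Rpn15, which carries no Psmd symbol, was at 95.3, 65.8 and 70.1 CPM in wt LFs and at 277, 323 and 177 CPM in KO-labelled LFs, a 3.37-fold rise without overlap (log2 1.75, SE 0.24; edgeR adjusted p = 4.24e-06). Ecpas, a scaffold that ties the 26S proteasome to other structures, was at 40.6, 35.9 and 48.9 CPM and at 17.6, 14 and 13.3 CPM, 2.80-fold lower without overlap (log2 -1.48, SE 0.26; edgeR adjusted p = 9.94e-05). Lower too were the inhibitor Psmf1 (-0.87), the ubiquitin receptor Adrm1 (-0.83) and the deubiquitinase Uchl5 (-0.82), and higher were Akirin2 (0.74), which carries proteasomes into the nucleus, and Txnl1 (0.55). Leaving out each library in turn kept the calls of Sem1 and Ecpas. Those of Adrm1 (without wt replicate 1 or KO-labelled replicate 3, adjusted p = 0.0768 and 0.0625), Akirin2 (without wt replicate 2, 0.0509), Psmf1 (without wt replicate 2 or KO-labelled replicates 2 or 3, 0.0767, 0.0781 and 0.133) and Uchl5 (without wt replicate 1 or KO-labelled replicates 1 or 2, 0.0814, 0.0555 and 0.114) were lost at times. Txnl1 was called in only 2 of these 6 fits, not without wt replicates 1, 2 or 3 (0.0699, 0.123 and 0.0602) or KO-labelled replicate 2 (0.137). Usp14 (0.013) and Ube3c (-0.014) did not pass the test.

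Among the regulators of proteasome genes, Nfe2l1 was at 161.5, 103.8 and 110.5 CPM in the wt libraries and at 244.7, 207.7 and 168.9 CPM in the KO-labelled ones. It rose 1.66-fold without overlap (log2 0.73, SE 0.22; edgeR adjusted p = 0.00997), though not past the threshold without wt replicate 2 (0.61, adjusted p = 0.0784), with library totals (0.32) or on the authors' normalized counts (0.66). Ddi2, the protease that activates the Nrf1 protein, was at 72.7, 92.0 and 93.4 CPM and at 60.4, 42.7 and 55.3 CPM, lower in each KO-labelled library (log2 -0.71, SE 0.22; edgeR adjusted p = 0.0115). Its call was lost without wt replicate 2 (-0.66, adjusted p = 0.0512) or KO-labelled replicate 2 (-0.55, adjusted p = 0.0722), and with length corrected it was at -0.067. Nfe2l2, the gene of Nrf2, was at 18.7, 9.10 and 22.3 CPM and at 29.1, 26.3 and 25.6 CPM, without overlap and not past the threshold (log2 0.68, SE 0.30; adjusted p = 0.0741). Leaving out wt replicate 3 put it past the threshold (0.97, adjusted p = 0.0298). Ngly1 had at most 11 counts in a library and was not tested.

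Of the ubiquitin and activating enzyme genes, Rps27a, which codes for ubiquitin fused to a ribosomal protein, was at 768, 634 and 556 CPM in wt LFs and at 1845, 3039 and 2587 CPM in KO-labelled LFs, 3.82-fold higher without overlap (log2 1.93, SE 0.23; edgeR adjusted p = 8.03e-07). Uba1, the main activating enzyme, was lower (-0.63, adjusted p = 0.0177; not called without wt replicates 2 or 3, 0.0850 and 0.0513, or KO-labelled replicate 2, 0.111), and Ubb (-0.071) and Uba6 (-0.57) did not pass the test. Among genes that deliver substrates, Nsfl1c, a cofactor of the segregase Vcp, rose from 22.5, 21.9 and 25.2 CPM to 56.0, 55.0 and 55.8 CPM (log2 1.25, SE 0.23; edgeR adjusted p = 1.41e-04). Nploc4, another cofactor, was lower, with 56.6, 45.0 and 36.7 CPM against 23.1, 23.4 and 20.5 CPM (log2 -1.04, SE 0.25; edgeR adjusted p = 0.00195). Ubqln4 was lower (-0.72, adjusted p = 0.0483) but was called in none of the 6 fits that left out 1 library (adjusted p = 0.0598, 0.114 and 0.150 without wt replicates 1, 2 and 3 and 0.123, 0.133 and 0.0616 without KO-labelled replicates 1, 2 and 3). Vcp, Ufd1, Rad23b, Ubqln1 and Ubqln2 did not pass the test, with log2 fold changes of -0.41 to 0.25.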

How the data were processed

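Quant-Seq libraries of 3 wt and 3 KO-labelled LF samples under TGFβ were compared. After trimming (Trim Galore), the authors mapped reads to GRCm38 (mm10) in 2 rounds, by HISAT2 and, for what was left, Bowtie2. MetaseqR2 counted them over 3′ UTR regions, and the authors deposited the raw counts summed per Ensembl gene. They also deposited normalized counts, made with EDASeq and rounded to whole numbers, which are used here as a score in 1 alternative (limma on log2 of the value + 1). The tool names are also in the submitters' processing notes. The strand setting of the counting is not given in the sources used here.

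Of 55364 genes, 55104 were matched to GENCODE M21 (Ensembl, GRCm38), which gave symbols, coordinates and transcript lengths (longest transcript). The raw counts of all genes entered 1 fit by edgeR 4.0.16 under R 4.3.3, with filterByExpr, TMM and the robust quasi-likelihood F test and no covariate, and Benjamini-Hochberg adjustment over 10346 genes. SE and 95% intervals come from this fit and cover the spread between libraries. Depth per library is given with the results, and reads carry no molecular identifiers. Members, lists and tests were chosen with earlier results of these data known, so no list was given a test. Every member is named. Library values are given for the catalytic genes, Psme1 to Psme4 and, in each subcomplex, the 2 members with the smallest adjusted p and the 1 with the largest; of each list of other genes, the 2 with the smallest adjusted p, with Psmb8, Psmb9, Psmb10, Nfe2l1, Nfe2l2 and Pomp. A few results for genes of these lists are not reported here.

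The alternatives were DESeq2 1.42.0, limma-voom (limma 3.58.1), a test against a fold change of 1.2, RLE, upper-quartile and library-total scaling, no filter, at least 10 counts in every library, corrections for transcript length and GC content (loess of span 0.5 on log values with a prior count of 2), a block for the replicate number, each library left out in turn, and the member rule. Adding the counts of near copies (95% identity over 200 bases, by blastn) and matching symbols by their start were chosen after seeing the data. Scripts were tested on simulated data. Python 3.11.15 made the tables (pandas 2.3.3, scipy 1.17.1, numpy 2.4.6) and plots (matplotlib 3.10.9).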

Additional observations from a re-analysis of the deposited data

How the results depend on the processing

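No member called lower became higher or the reverse under any alternative, with 1 exception: Psma1 was at -0.009 on the log2 scale with length and GC content corrected together. Over 798 pairs of a member and an alternative, 717 stayed on the same side of the threshold, 67 lost the call and 13 gained it. Of 24 called members, 10 kept their call in all 21 alternatives, and 11 of the 14 members that were not called changed sign in at least 1. The count of core genes called higher was 8 with library totals as the scaling, on the authors' normalized counts, with length corrected, and with length corrected beside a replicate block. It was 9 with length and GC content corrected and 13 under the other alternatives that kept all libraries. The core median was 0.65 with library totals, 0.91 on the authors' normalized counts, 0.73 with length corrected (also with the block), 1.26 with GC content corrected and 0.81 with both, and 0.96 to 1.29 when leaving out 1 library at a time. The regulatory genes called higher numbered 2 with library totals, with length corrected (also with the block) and with length and GC content corrected. The regulatory median was -0.41 with library totals and -0.23 with length and GC content corrected. Library totals moved the median of all genes to -0.465, with 1362 genes higher and 3944 lower, so that the shifts of both medians under it are shared with all genes. Near copies added left the core at 13 higher and the regulatory genes at 5 higher and 6 lower. Matching symbols by their start added Psme2b (0.77) and Psmc3ip (1.23), both called higher, though Psmc3ip was not without wt replicate 3 (adjusted p = 0.0786) or KO-labelled replicate 2 (0.168).

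The replicate numbers did not pair the libraries: the correlations of same-numbered deviations were -0.00101, -0.0637 and 0.082. With the replicate number as a block, 4668 genes were called, 13 core genes were higher, and 5 regulatory genes were higher and 6 lower, as without it. Depth limits the low members most: Psme1, with 255 counts in all, has a 95% interval from -0.034 to 1.10. Reads shared with near copies reached at least 20% of a member's own counts in 4 members, Psma3, Psma4, Psmb5 and Psme2. The cause of the changes under the other scalings was not tested.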
